A study of Mus musculus with 26 samples.

Results

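Collagens and the glycoproteins and proteoglycans deposited with them in the extracellular matrix were followed in MC38/gp100 cells, which are mouse colon adenocarcinoma cells that also express gp100, an antigen of melanoma. The set holds every gene of the deposited expression table whose symbol is that of a collagen chain, and 17 matrix genes chosen by name: Dcn, Lum, Bgn, Vcan, Fn1, Postn, Sparc, Tnc, Thbs1, Thbs2, Abi3bp, Fbn1, Fbn2, Lamb1, Lamc1, Nid1 and Nid2. It came to 41 of 15629 named genes, of which 25 were collagens and 16 were among the 17 chosen by name, and Fbn2 was not analysed here. Of the 41 genes, 40 passed the filter on low counts and were tested. Col28a1 did not pass, with 0, 8 and 5 counts summed over the KO libraries with MRTX1719, GSK3326595 and DMSO, and 8, 21 and 8 counts over the WT libraries with the same 3 treatments.

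The 6 groups were a line with Mtap knocked out (KO) and the wild-type line (WT), each given MRTX1719 at 0.5 uM, GSK3326595 at 0.5 uM or DMSO for 5 days, and both lines carried gp100. Poly(A) RNA was sequenced in 3 libraries per group, except for WT cells with MRTX1719, which had 2 (replicates 1 and 3). The labels do not say whether replicates came from separate cultures, so every p-value here reflects library-to-library spread alone, and that spread may be technical. They also do not say whether the KO line is a single clone, and with 1 line per genotype the loss of Mtap and any other difference between the lines cannot be told apart.

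Fibrillar collagens are secreted as procollagens, trimmed outside the cell and cross-linked into the fibrils that give tissue its strength. Type IV collagen, laminins and nidogens build the basement membrane, type VI collagen forms beaded filaments close to cells, and FACIT collagens sit on the surface of fibrils. Small leucine-rich proteoglycans such as decorin bind fibrils and limit their width, while glycoproteins such as fibronectin, periostin and the thrombospondins link fibrils, growth factors and cell receptors. PRMT5 places symmetric dimethyl marks on arginines of splicing and chromatin proteins. MTAP clears methylthioadenosine (MTA), a partial inhibitor of PRMT5 that builds up in cells without MTAP. MRTX1719 binds PRMT5 together with MTA, whereas GSK3326595 inhibits PRMT5 without needing MTA. The comparisons address how these inhibitors change matrix gene RNA in either line.

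Library totals ran from 19302768 to 27786226 counts. Mtap RNA was present in both lines, at 205 ± 1.72 CPM with MRTX1719, 246 ± 8.51 CPM with GSK3326595 and 271 ± 6.31 CPM with DMSO in KO cells, against 399 ± 0.466, 419 ± 2.43 and 393 ± 4.61 CPM with the same treatments in WT cells (SD; n = 3, 2 in WT cells with MRTX1719; CPM are counts scaled to a common library total after TMM adjustment). Every KO library was below every WT library, and the counts do not show how the gene was altered. Markers of colon epithelium, the tissue named in the labels, were low: over 10 markers the summed level ran from 73.5 to 76.6 CPM with MRTX1719, 78.6 to 81.5 CPM with GSK3326595 and 31.9 to 32.9 CPM with DMSO in KO cells, against 31.4 to 31.6, 47.3 to 49.6 and 27.5 to 29.8 CPM in WT cells. Epcam and Cdx2 had 0 counts in both DMSO groups, and Cldn7 in WT cells under DMSO. Epcam had counts in KO cells with GSK3326595, and Cdx2 in KO cells with MRTX1719 and WT cells with GSK3326595. Of the 4 epithelial markers tested, 3 were higher and 1 lower in KO cells with MRTX1719 against DMSO. Over all genes, 37.0% were higher and 33.6% lower. Summed over 8 fibroblast markers outside the matrix set, levels ran from 256 to 262 CPM with MRTX1719, 308 to 322 CPM with GSK3326595 and 392 to 403 CPM with DMSO in KO cells, against 286 to 291, 278 to 284 and 294 to 304 CPM in WT cells. Among these, Tcf21 had 0 counts in all 6 groups. Of the 7 fibroblast markers tested, 2 were higher and 3 lower in KO cells with MRTX1719 against DMSO. The shares of all genes were 37.0% higher and 33.6% lower. The summed level of this list fell in KO cells with MRTX1719, as did most matrix genes described next. Its part in those results was not tested. In bulk RNA, fewer cells of a type and less RNA per cell cannot be told apart. Over 6 markers of mesothelium or smooth muscle, of which Msln gave most counts, the summed level ran from 148 to 151 CPM with MRTX1719, 252 to 259 CPM with GSK3326595 and 409 to 417 CPM with DMSO in KO cells, against 574 to 590.2, 545 to 553 and 574 to 592 CPM in WT cells, and its part was not tested either. Markers of endothelium summed to at most 5.83 CPM and those of leukocytes to at most 23.5 CPM in any library.

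The genes whose RNA changed at least 2-fold with MRTX1719 in KO cells, and averaged at least 10 CPM in a group, were Col16a1, Col6a1, Col6a2, Col4a5, Col5a3, Col3a1 and Col18a1, which fell, and Thbs2, which rose. Their promoters are shown so that the sequence before these genes can be read side by side. Each line gives the 250 bases before the RefSeq start of the gene on the gene's own strand (GRCm38.p6), 5′ to 3′. The windows lie at chr4:130047590-130047839 (+ strand) for Col16a1, chr10:76726045-76726294 (- strand) for Col6a1, chr10:76623405-76623654 (- strand) for Col6a2, chrX:141475169-141475418 (+ strand) for Col4a5 and chr9:20815068-20815317 (- strand) for Col5a3. Those of Col3a1, Col18a1 and Thbs2 lie at chr1:45311288-45311537 (+ strand), chr10:77166531-77166780 (- strand) and chr17:14694263-14694512 (- strand). For Col6a2 and Col18a1 RefSeq lists 2 starts, and the first listed was used. Capitals mark matches, on either strand, to the letters TATAAA of a TATA box, to the CCAAT box, to the letters GGGCGG of a GC box, or to TGANTCA, the letters of an AP-1 site.
Col16a1: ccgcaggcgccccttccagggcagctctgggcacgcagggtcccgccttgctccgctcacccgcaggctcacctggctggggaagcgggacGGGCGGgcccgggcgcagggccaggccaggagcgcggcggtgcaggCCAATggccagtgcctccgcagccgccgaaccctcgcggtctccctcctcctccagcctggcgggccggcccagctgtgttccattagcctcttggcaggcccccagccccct
Col6a1: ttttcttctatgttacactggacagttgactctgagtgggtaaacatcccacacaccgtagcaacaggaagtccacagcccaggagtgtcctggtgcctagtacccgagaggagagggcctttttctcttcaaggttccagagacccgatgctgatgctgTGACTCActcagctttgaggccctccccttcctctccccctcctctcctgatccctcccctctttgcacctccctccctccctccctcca
Col6a2: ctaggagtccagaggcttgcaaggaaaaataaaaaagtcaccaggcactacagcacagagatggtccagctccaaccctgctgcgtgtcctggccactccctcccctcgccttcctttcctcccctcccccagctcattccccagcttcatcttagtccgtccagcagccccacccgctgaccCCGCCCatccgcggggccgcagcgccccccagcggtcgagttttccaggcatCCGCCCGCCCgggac
Col4a5: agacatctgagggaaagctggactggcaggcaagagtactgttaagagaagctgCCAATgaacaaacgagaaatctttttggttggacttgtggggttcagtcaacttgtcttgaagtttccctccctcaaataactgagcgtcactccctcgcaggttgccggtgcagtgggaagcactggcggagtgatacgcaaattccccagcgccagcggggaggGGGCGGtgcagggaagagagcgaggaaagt
Col5a3: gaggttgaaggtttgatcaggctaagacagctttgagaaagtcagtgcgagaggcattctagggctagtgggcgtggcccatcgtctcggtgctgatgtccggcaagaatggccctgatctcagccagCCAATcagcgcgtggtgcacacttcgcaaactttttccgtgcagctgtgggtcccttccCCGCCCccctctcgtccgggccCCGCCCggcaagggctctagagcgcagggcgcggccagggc
Col3a1: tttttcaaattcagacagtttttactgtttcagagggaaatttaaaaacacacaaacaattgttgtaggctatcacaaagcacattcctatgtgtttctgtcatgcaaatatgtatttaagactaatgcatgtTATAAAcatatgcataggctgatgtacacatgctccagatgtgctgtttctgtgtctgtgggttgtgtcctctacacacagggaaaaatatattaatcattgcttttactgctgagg
Col18a1: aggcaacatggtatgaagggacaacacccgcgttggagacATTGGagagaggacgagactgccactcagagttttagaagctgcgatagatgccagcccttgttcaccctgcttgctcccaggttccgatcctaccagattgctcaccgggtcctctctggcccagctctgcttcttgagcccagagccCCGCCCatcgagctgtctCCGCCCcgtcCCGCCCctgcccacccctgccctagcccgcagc
Thbs2: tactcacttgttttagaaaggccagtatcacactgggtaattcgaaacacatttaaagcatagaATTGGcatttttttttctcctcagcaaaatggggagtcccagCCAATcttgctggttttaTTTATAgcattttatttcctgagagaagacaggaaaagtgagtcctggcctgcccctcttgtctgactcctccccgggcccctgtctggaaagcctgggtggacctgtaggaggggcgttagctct

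No motif was shared by all 8 windows. Col6a1 and Col6a2, which are neighbours on chromosome 10 and encode chains of the same filament, shared none of the 4 motifs: the Col6a1 window held 1 AP-1 match, and the Col6a2 window held 3 GC box matches, of which a pair overlapped. The Col3a1 window had 1 TATA box match and a GC content of 35.2%, against 75.6% in the Col16a1 window. A RefSeq window was found for 29 of the 41 genes. Of these 29, 18 held a GC box (62.1%, against 32.9% of 27025 mouse promoter windows of the same length), 14 a CCAAT box (48.3%, against 34.5%), 5 a TATA box (17.2%, against 13.0%) and 1 an AP-1 match (3.4%, against 6.9%). The median GC content was 58.0% in these windows and 52.0% in all windows, which bears on the GC box. A match is a description of the letters, not a binding site, and no match says only that these letters are not in this window.

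With MRTX1719, matrix gene RNA in KO cells was mostly lower, and in WT cells it hardly moved. In KO cells with MRTX1719 against DMSO, 28 of the 40 genes were lower and 7 higher (edgeR quasi-likelihood test, Benjamini-Hochberg adjusted p under 0.05 over 14835 genes), where 33.6% of all genes tested were lower and 37.0% higher (70.5% in either direction). Their median log2 change was -0.40, against 0.02 over all genes. By at least 2-fold, 9 genes were lower and 2 higher, where 12.0% of all genes passed and moved that far in either direction. Both counts of higher genes include Tnc. It had 1 count over the KO DMSO libraries and passed the low-count filter through WT libraries, so its KO call is a description. In WT cells with MRTX1719, 10 genes were lower and 4 higher, where 3.91% of all genes were lower and 3.62% higher (7.53% in either direction), and none of the 40 moved 2-fold (0.121% of all genes did). The count of 14 fell without either WT MRTX1719 library. Such a fit leaves 1 library in that group, so the fall is not comparable with those for groups of 3. The change in WT cells lay between -0.2 and 0.2 on the log2 scale for 33 of the 40 genes, with a median of -0.02.

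GSK3326595 gave a more mixed picture in both lines. In KO cells 16 genes were lower and 12 higher, where 25.1% of all genes were lower and 27.7% higher (52.8% in all), with a median log2 change of -0.01 (0.006 over all genes) and 4 genes past 2-fold (3.68% of all genes). In WT cells 17 genes were lower and 15 higher, where 21.1% of all genes were lower and 20.1% higher (41.1% in all), with a median of 0.01 (0.001 over all genes) and 6 genes past 2-fold (2.32% of all genes). These comparisons have separate controls, and 12 of the 40 genes were lower and 9 higher in both lines, where 8.50% of all genes were lower and 9.18% higher in both. The 12 were Bgn, Col16a1, Col18a1, Col1a2, Col3a1, Col4a2, Col4a5, Col5a1, Col6a1, Col6a2, Col8a1 and Vcan, and the 9 were Col12a1, Fbn1, Fn1, Lamb1, Lum, Sparc, Thbs1, Thbs2 and Tnc. Tnc is also counted as higher and past 2-fold in KO cells, where its call rests on 1 count with DMSO and is a description. In KO cells the call for Fbn1 (0.05 ± 0.020, adjusted p = 0.0258) was lost without KO DMSO replicate 1 or 3 or KO GSK3326595 replicate 2 (adjusted p = 0.131, 0.0672 and 0.0605), and that for Col4a2 (-0.05 ± 0.020, adjusted p = 0.0204) without KO DMSO replicate 3 or KO GSK3326595 replicate 3 (adjusted p = 0.121 and 0.171). The Fbn1 call was also lost with no filter on low counts or with only the groups compared (adjusted p = 0.298 and 0.188).

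Between the lines under DMSO, KO cells held more matrix RNA. There 26 of the 40 genes were higher and 11 lower, where 36.2% of all genes were higher and 37.0% lower (73.2% in all), with a median log2 difference of 0.33, against 0.01 over all genes. A 2-fold difference was passed by 13 genes upward and 5 downward (15.0% of all genes in either direction). Tnc is among the 11 and the 5, but with 1 count over the KO DMSO libraries its difference is a description. The 41 genes together took 2.22% ± 0.00841 of counts with MRTX1719, 2.72% ± 0.0227 with GSK3326595 and 3.09% ± 0.0273 with DMSO in KO cells, against 1.69% in both MRTX1719 libraries, 1.71% ± 0.0122 with GSK3326595 and 1.73% ± 0.00988 with DMSO in WT cells (SD). The KO comparisons with either inhibitor and the comparison of the lines all use the KO DMSO libraries, so their values are given side by side and their overlap is not counted.

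**Figure D1:**
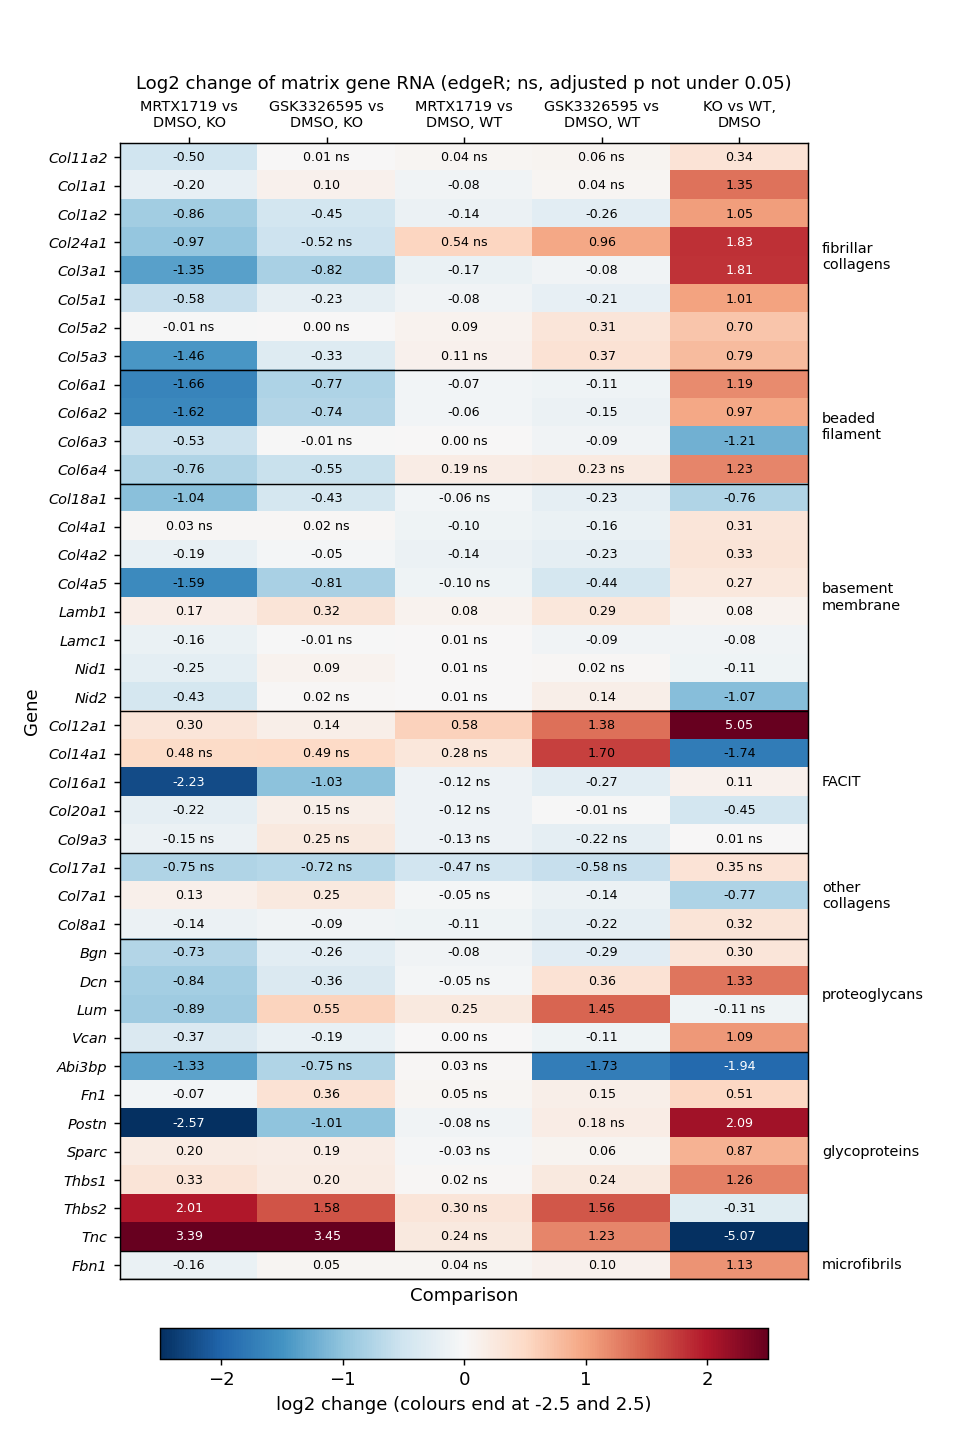
Log2 change of the 40 tested genes (rows, by class) in 5 comparisons (columns), as fitted by edgeR, with colour from blue (lower) to red (higher) and "ns" where the adjusted p was not under 0.05. The first column (MRTX1719 in KO cells) is mostly blue, with 28 genes lower, and the third (MRTX1719 in WT cells) is mostly pale, with 14 genes past the test.

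Fibrillar collagens were higher in KO cells than in WT cells under DMSO in 8 of 8 tested chains. With MRTX1719 in KO cells 7 of 8 fell, and with GSK3326595 4 fell and 1 rose. In WT cells 4 fell and 1 rose with MRTX1719, and 3 fell and 3 rose with GSK3326595. Of all genes, 36.2% were higher in KO than in WT cells under DMSO. In KO cells 33.6% fell with MRTX1719, and 25.1% fell and 27.7% rose with GSK3326595. In WT cells 3.91% fell and 3.62% rose with MRTX1719, and 21.1% fell and 20.1% rose with GSK3326595. Col3a1, the chain of type III collagen, which forms thin, pliable fibrils, had the highest summed counts of the class in KO cells under DMSO. Its level in KO cells was 1981, 1984 and 1973 CPM with MRTX1719, 2892, 2866 and 2783 CPM with GSK3326595 and 4818, 5184 and 5122 CPM with DMSO. In WT cells Col3a1 had 1288 and 1259 CPM with MRTX1719, 1361, 1346 and 1371 CPM with GSK3326595 and 1454, 1413 and 1442 CPM with DMSO. The KO groups were far apart and did not overlap, and all KO libraries were above all WT libraries. The log2 change of Col3a1 in KO cells was -1.35 ± 0.018 (adjusted p = 6.39e-92) with MRTX1719 and -0.82 ± 0.018 (adjusted p = 4.8e-70) with GSK3326595, and the difference between the lines under DMSO was 1.81 ± 0.018 (adjusted p = 9.25e-105). In WT cells it was -0.17 ± 0.020 (adjusted p = 6.49e-11) with MRTX1719, past the test but 1.13-fold lower, against 2.55-fold lower in KO cells.

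Col5a3, a minor type V chain that helps start fibrils, showed the largest fall of the class with MRTX1719 in KO cells. Its KO libraries had 17.6, 19.03 and 19.6 CPM with MRTX1719, 41.5, 39.95 and 41.8 CPM with GSK3326595 and 51.4, 51.9 and 51.8 CPM with DMSO. Its WT libraries had 32.7 and 31.8 CPM with MRTX1719, 38.3, 38.3 and 38.9 CPM with GSK3326595 and 29.9, 30.6 and 29.03 CPM with DMSO. MRTX1719-treated KO cells held the lowest values of all groups, and no KO group overlapped another. Col5a3 changed by -1.46 ± 0.050 (adjusted p = 8.36e-59) with MRTX1719 and -0.33 ± 0.043 (adjusted p = 1.11e-11) with GSK3326595 in KO cells, while in WT cells GSK3326595 raised it by 0.37 ± 0.046 (adjusted p = 1.49e-11) and MRTX1719 gave 0.11 ± 0.053 (adjusted p = 0.216), which did not pass.

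The chains of type I collagen, the main fibril of connective tissue, did not move in step. Col1a1 averaged 2021 ± 31.3 CPM with MRTX1719, 2479 ± 99.96 CPM with GSK3326595 and 2314 ± 24.3 CPM with DMSO in KO cells. Col1a2 averaged 1322 ± 12.4, 1762 ± 43.01 and 2406 ± 74.3 CPM in the same groups (SD, n = 3 each). With MRTX1719 the log2 change in KO cells was -0.20 ± 0.018 (adjusted p = 1e-18) for Col1a1 and -0.86 ± 0.018 (adjusted p = 4e-83) for Col1a2. With GSK3326595 Col1a1 rose by 0.10 ± 0.018 (adjusted p = 8.65e-07) while Col1a2 changed by -0.45 ± 0.018 (adjusted p = 7.9e-50). Col5a1 fell by 0.58 on the log2 scale with MRTX1719 in KO cells, whereas Col5a2, its partner chain in type V collagen, had a change of -0.01 ± 0.019 (adjusted p = 0.606), which did not pass. Col24a1, a low-level fibrillar chain, averaged 0.878 ± 0.282, 1.204 ± 0.153 and 1.73 ± 0.243 CPM in KO cells with MRTX1719, GSK3326595 and DMSO, against 0.699 ± 0.0277, 0.938 ± 0.171 and 0.474 ± 0.134 CPM in WT cells. It fell with MRTX1719 in KO cells (-0.97 ± 0.256, adjusted p = 0.000427) and rose with GSK3326595 in WT cells (0.96 ± 0.316, adjusted p = 0.00914), a call that was lost without WT DMSO replicate 1 (0.77, adjusted p = 0.068) or WT GSK3326595 replicate 2 (0.82, adjusted p = 0.0597).

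Type VI collagen, the beaded filament that anchors cells to the surrounding matrix, fell in all 4 of its tested chains with MRTX1719 in KO cells and in 3 of 4 with GSK3326595. Of all genes, 33.6% and 25.1% fell in these comparisons. Col6a1 and Col6a2, which join in a filament unit with another chain such as that of Col6a3, moved by nearly the same amount. For Col6a1 the KO libraries had 535, 537 and 529.9 CPM with MRTX1719, 1009, 979.8 and 974 CPM with GSK3326595 and 1688, 1698 and 1681 CPM with DMSO. The WT libraries of Col6a1 had 715 and 698 CPM with MRTX1719, 674, 686 and 699 CPM with GSK3326595 and 731, 742.5 and 749 CPM with DMSO. KO cells under DMSO stood above every other group, and MRTX1719-treated KO cells fell below every WT library. For Col6a2 the KO libraries had 393, 389 and 376 CPM with MRTX1719, 729.9, 707 and 694 CPM with GSK3326595 and 1205, 1177 and 1185 CPM with DMSO. The WT libraries of Col6a2 had 577 and 582 CPM with MRTX1719, 544, 536.5 and 552 CPM with GSK3326595 and 603.5, 612 and 602 CPM with DMSO. The order of the groups was the same as for Col6a1, again with no overlap among KO groups.

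The log2 change with MRTX1719 in KO cells was -1.66 ± 0.019 (adjusted p = 6.53e-118) for Col6a1 and -1.62 ± 0.020 (adjusted p = 1.07e-113) for Col6a2, 3.16-fold and 3.08-fold lower. GSK3326595 gave -0.77 ± 0.018 (adjusted p = 3.97e-77) for Col6a1 and -0.74 ± 0.019 (adjusted p = 1.76e-72) for Col6a2. In WT cells with MRTX1719 the changes were -0.07 ± 0.021 and -0.06 ± 0.022 (adjusted p = 0.0247 and 0.0486). Both calls were lost without WT DMSO replicate 2 or 3, with adjusted p of 0.0735 and 0.116 for Col6a1 and 0.168 and 0.0757 for Col6a2. They were also lost without either WT MRTX1719 library, which leaves 1 in that group. The changes were then -0.08 and -0.05 for Col6a1 and -0.06 and -0.07 for Col6a2. Under DMSO both chains were higher in KO cells, by 1.19 ± 0.019 and 0.97 ± 0.019, but Col6a3 was lower by 2.32-fold (-1.21 ± 0.024, adjusted p = 8.55e-87). Col6a3 averaged 102 ± 1.97 CPM with MRTX1719, 146.5 ± 1.899 CPM with GSK3326595 and 147 ± 2.68 CPM with DMSO in KO cells. It averaged 341 ± 6.403, 319 ± 5.43 and 340.5 ± 8.45 CPM with the same treatments in WT cells. It fell with MRTX1719 in KO cells (-0.53 ± 0.028, adjusted p = 4.85e-39) and gave -0.01 ± 0.026 (adjusted p = 0.874) with GSK3326595. Col6a4 was at 1.26 to 4.29 CPM in every library and fell with both inhibitors in KO cells, with log2 changes of -0.76 ± 0.161 and -0.55 ± 0.154 (adjusted p = 1.19e-05 and 0.00138).

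**Figure D2:**
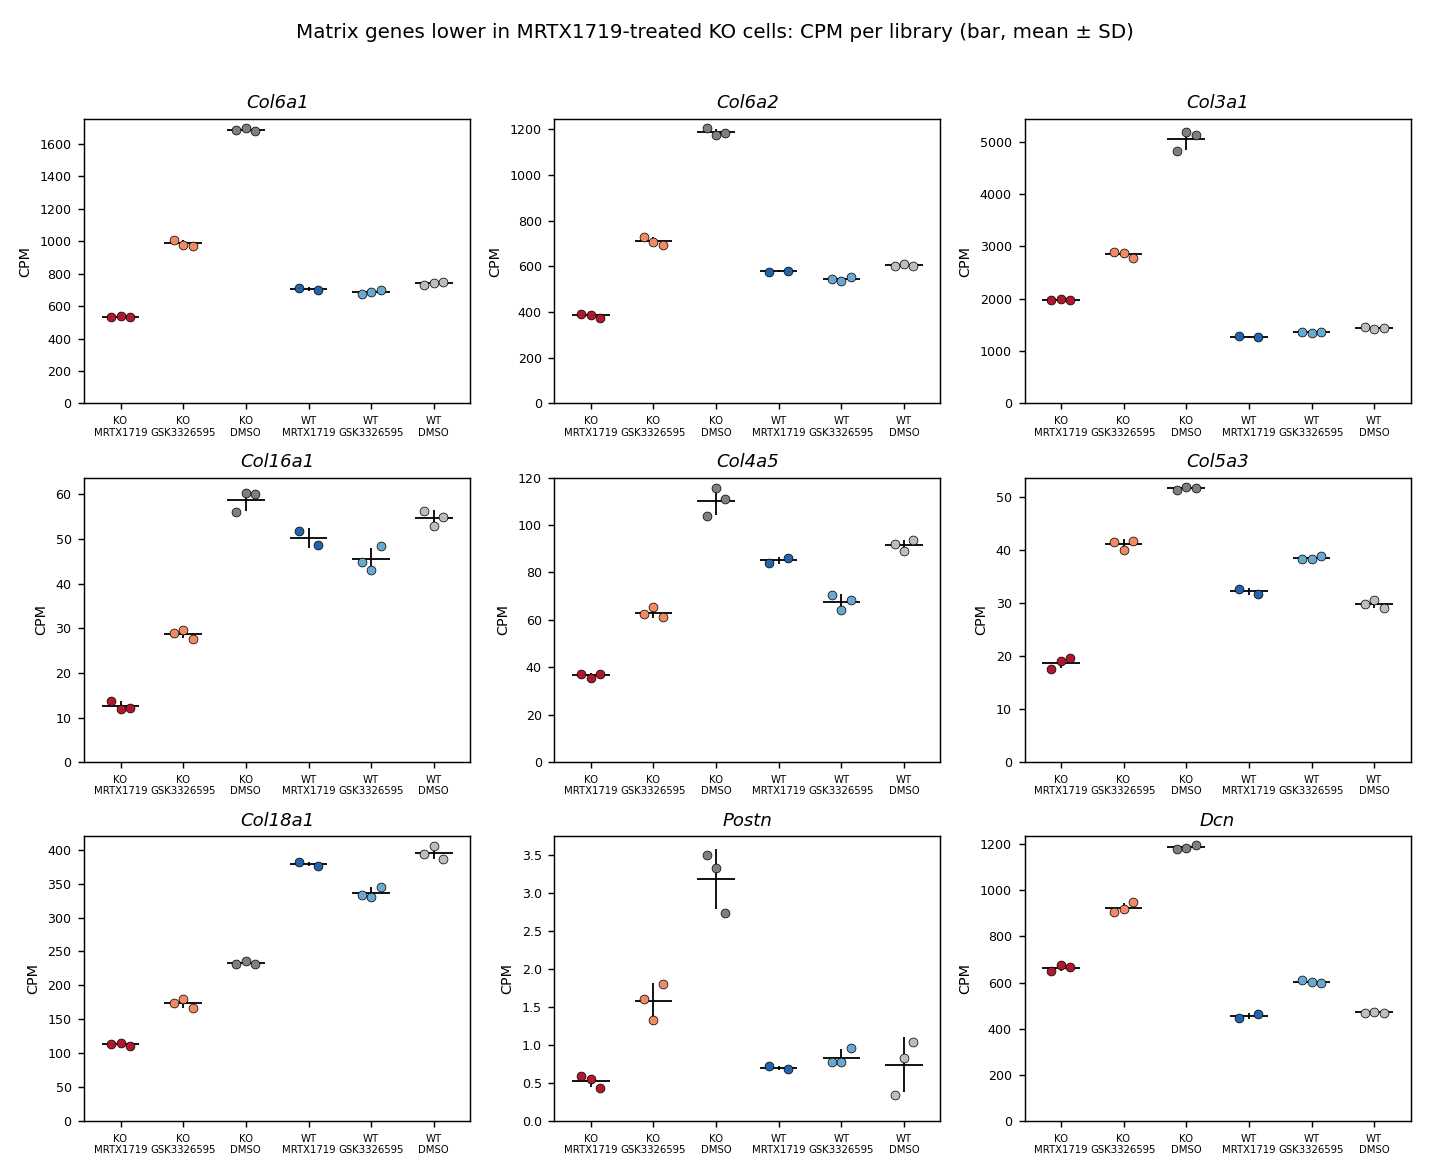
CPM in each library (points) with the group mean and SD (bars; 3 libraries per group, 2 in WT cells with MRTX1719) for 9 genes that were lower with MRTX1719 in KO cells. In each panel the MRTX1719-treated KO libraries lie lowest of the 3 KO groups, and the means of the 3 WT groups lie closer together than those of the KO groups.

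Basement membrane genes split between chains. In KO cells 6 of 8 fell and 1 rose with MRTX1719, and 3 fell and 2 rose with GSK3326595, while in WT cells 2 fell and 1 rose with MRTX1719 and 5 fell and 2 rose with GSK3326595. Of all genes, 33.6% fell and 37.0% rose with MRTX1719, and 25.1% fell and 27.7% rose with GSK3326595, in KO cells. In WT cells 3.91% fell and 3.62% rose with MRTX1719, and 21.1% fell and 20.1% rose with GSK3326595. Col4a5, an X-linked type IV chain, had 37.4, 35.4 and 37.1 CPM with MRTX1719, 62.3, 65.3 and 61.4 CPM with GSK3326595 and 104, 116 and 111 CPM with DMSO in KO cells. WT cells had 84.1 and 86.2 CPM with MRTX1719, 70.3, 64.2 and 68.3 CPM with GSK3326595 and 91.98, 88.9 and 93.5 CPM with DMSO for Col4a5. KO cells with MRTX1719 were below all other groups, and KO cells under DMSO were above all others. Its log2 change was -1.59 ± 0.038 (adjusted p = 1.17e-75) with MRTX1719 and -0.81 ± 0.035 (adjusted p = 1.08e-46) with GSK3326595 in KO cells, and -0.44 ± 0.035 (adjusted p = 1.2e-22) with GSK3326595 in WT cells. Col4a1 and Col4a2, the common type IV chains that lie head to head on chromosome 8, changed little: with MRTX1719 in KO cells Col4a1 gave 0.03 ± 0.019 (adjusted p = 0.156) and Col4a2 -0.19 ± 0.020 (adjusted p = 2.93e-16).

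Col18a1, a basement membrane collagen whose C-terminal fragment is endostatin, was lower in KO than in WT cells under DMSO and fell with both inhibitors in KO cells. KO libraries of Col18a1 had 114, 115 and 111 CPM with MRTX1719, 174, 179.6 and 167 CPM with GSK3326595 and 232, 236 and 231.5 CPM with DMSO. WT libraries of Col18a1 had 381.5 and 376.5 CPM with MRTX1719, 333, 331 and 346 CPM with GSK3326595 and 393, 405 and 387 CPM with DMSO. Every KO library was below every WT library. The log2 change was -1.04 ± 0.026 (adjusted p = 1.09e-74) with MRTX1719 and -0.43 ± 0.025 (adjusted p = 1.85e-34) with GSK3326595 in KO cells, and KO cells were lower than WT cells under DMSO by 1.69-fold (-0.76 ± 0.023, adjusted p = 7.47e-65). Lamb1, the beta chain of several laminins, rose with both inhibitors in KO cells, by 0.17 ± 0.018 and 0.32 ± 0.018, while Lamc1, the gamma chain, gave -0.16 ± 0.020 and -0.01 ± 0.020, the second not past the test (adjusted p = 0.807). The nidogens, which bridge laminin and type IV collagen, fell with MRTX1719 in KO cells, with log2 changes of -0.25 ± 0.022 for Nid1 and -0.43 ± 0.071 for Nid2. Nid2 was 2.09-fold lower in KO than in WT cells under DMSO (-1.07 ± 0.058, adjusted p = 1.16e-37). Exons of Rtraf cover 8.45% of the Nid2 exon length on the other strand. Without a known strand setting, reads of the 2 genes in that shared stretch cannot be told apart.

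Among FACIT collagens, Col16a1 had the largest fall of any collagen with MRTX1719 in KO cells, and Col12a1 and Col14a1 differed most between the lines. Of the 5 genes 1 rose and 2 fell with MRTX1719, and 1 rose and 1 fell with GSK3326595, in KO cells, while 1 rose with MRTX1719 and 2 rose and 1 fell with GSK3326595 in WT cells. Of all genes, 37.0% rose and 33.6% fell with MRTX1719, and 27.7% rose and 25.1% fell with GSK3326595, in KO cells. In WT cells 3.62% rose with MRTX1719, and 20.1% rose and 21.1% fell with GSK3326595. Col16a1, which binds fibrils and integrins, had 13.8, 11.9 and 12.1 CPM with MRTX1719, 28.96, 29.7 and 27.7 CPM with GSK3326595 and 55.95, 60.3 and 60.1 CPM with DMSO in KO cells. In WT cells Col16a1 had 51.9 and 48.6 CPM with MRTX1719, 44.8, 43.1 and 48.3 CPM with GSK3326595 and 56.3, 52.9 and 55.01 CPM with DMSO. The KO groups with inhibitors were below all other groups, with MRTX1719 lowest, while the DMSO groups of the lines overlapped. The log2 change in KO cells was -2.23 ± 0.055 (adjusted p = 9.51e-76) with MRTX1719, 4.696-fold lower, and -1.03 ± 0.046 (adjusted p = 1.18e-45) with GSK3326595. In WT cells it was -0.12 ± 0.046 (adjusted p = 0.0937) with MRTX1719, which did not pass, and -0.27 ± 0.042 (adjusted p = 3.42e-08) with GSK3326595. The small difference between the lines under DMSO (0.11 ± 0.041, adjusted p = 0.0147) was lost without WT DMSO replicate 2 or KO DMSO replicate 2 or 3 (adjusted p = 0.104, 0.0668 and 0.0608).

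Col12a1, a FACIT collagen of dense and strained tissue, was 33.1-fold higher in KO than in WT cells under DMSO, the largest difference of the set in that direction. KO cells had 129, 129 and 129 CPM with MRTX1719, 115, 112 and 119.9 CPM with GSK3326595 and 102, 105 and 108 CPM with DMSO. WT cells had 4.57 and 4.96 CPM with MRTX1719, 9.05, 7.47 and 8.23 CPM with GSK3326595 and 3.59, 2.99 and 2.96 CPM with DMSO. No KO library came near a WT library. The log2 difference was 5.05 ± 0.062 (adjusted p = 9.59e-115), and Col12a1 rose with MRTX1719 (0.30 ± 0.032, adjusted p = 1.1e-15) and GSK3326595 (0.14 ± 0.032, adjusted p = 0.000112) in KO cells. In WT cells, from its lower level, it rose by 1.38 ± 0.104 (adjusted p = 2.28e-24) with GSK3326595 and 0.58 ± 0.130 (adjusted p = 0.000884) with MRTX1719. The second call was lost without WT MRTX1719 replicate 3 (0.52), which leaves 1 library in that group.

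Col14a1, a FACIT collagen bound to fibrils in skin and tendon, had 0.868, 0.847 and 0.5303 CPM with MRTX1719, 0.754, 0.881 and 0.649 CPM with GSK3326595 and 0.565, 0.809 and 0.249 CPM with DMSO in KO cells. WT cells had 2.34 and 2.08 CPM with MRTX1719, 6.39, 5.62 and 5.76 CPM with GSK3326595 and 1.86, 1.55 and 2.09 CPM with DMSO for Col14a1. Every WT library was above every KO library, and GSK3326595-treated WT cells stood apart from both other WT groups. Its log2 difference between the lines under DMSO was -1.74 ± 0.265 (adjusted p = 2.62e-09), and its change with GSK3326595 in WT cells was 1.70 ± 0.157 (adjusted p = 1.7e-18). In KO cells the changes were 0.48 ± 0.326 (adjusted p = 0.178) with MRTX1719 and 0.49 ± 0.319 (adjusted p = 0.193) with GSK3326595, neither past the test, and both passed without KO DMSO replicate 2 (0.95, adjusted p = 0.0288, and 0.96, adjusted p = 0.0348). Col20a1 fell with MRTX1719 in KO cells (-0.22 ± 0.082, adjusted p = 0.0109), a call lost without KO DMSO replicate 1 (-0.15, adjusted p = 0.124). Col9a3 passed none of the 4 comparisons of an inhibitor with DMSO with all libraries, but its change with GSK3326595 in WT cells (-0.22 ± 0.117, adjusted p = 0.135) passed without WT DMSO replicate 1 (-0.34, adjusted p = 0.0251).

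**Figure D3:**
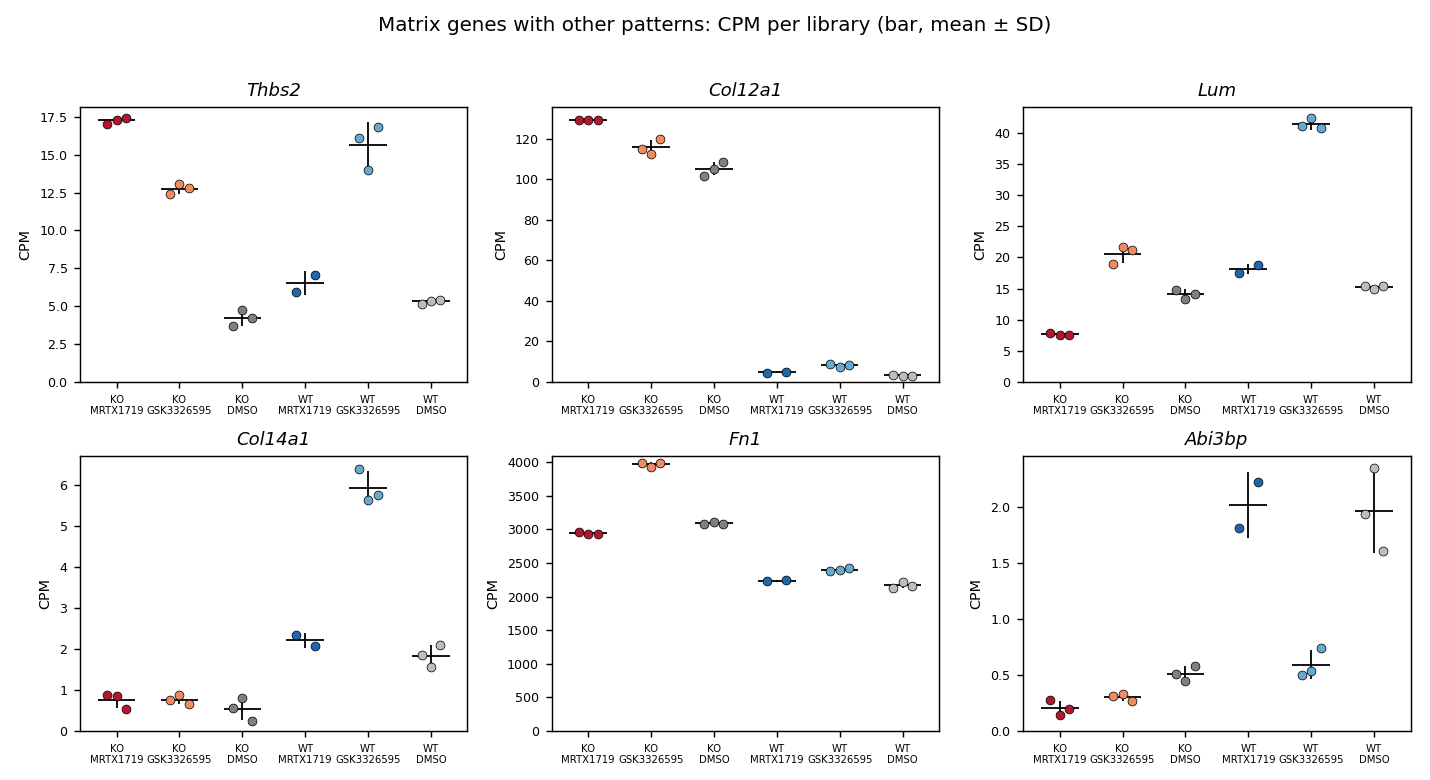
CPM in each library (points) with the group mean and SD (bars; 3 libraries per group, 2 in WT cells with MRTX1719) for 6 genes with other patterns. Thbs2 is high with both inhibitors in KO cells and with GSK3326595 in WT cells, Col12a1 runs from 102 to 129 CPM over KO libraries and from 2.96 to 9.05 CPM over WT libraries, and Lum and Col14a1 are highest in WT cells with GSK3326595.

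The other collagens moved little with the inhibitors. Between the lines under DMSO, Col7a1 was 1.71-fold lower in KO than in WT cells (-0.77 ± 0.040, adjusted p = 1.56e-39). Col8a1 was 1.24-fold higher (0.32 ± 0.030, adjusted p = 1.91e-18). Col8a1, a short-chain collagen of vessel walls and cornea, fell with both inhibitors in KO cells, with log2 changes of -0.14 ± 0.030 with MRTX1719 and -0.09 ± 0.030 with GSK3326595, the second lost without KO GSK3326595 replicate 1 (-0.07, adjusted p = 0.0518). Col7a1, the collagen of the anchoring fibrils of skin, rose by 0.13 ± 0.044 and 0.25 ± 0.042 with the same inhibitors (adjusted p = 0.00429 and 1.85e-07), the first lost without KO DMSO replicate 1 (0.09, adjusted p = 0.0737). That call was also lost with no filter on low counts (0.10, adjusted p = 0.0558). In WT cells with GSK3326595 Col7a1 fell (-0.14 ± 0.036, adjusted p = 0.00125). Col17a1 was under 1 CPM in every library and did not pass against DMSO with all libraries, but its change with GSK3326595 in KO cells (-0.72 ± 0.482, adjusted p = 0.207) passed without KO GSK3326595 replicate 3 (-1.60, adjusted p = 0.0239).

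All 4 proteoglycans fell with MRTX1719 in KO cells, and 3 of 4 fell with GSK3326595 there, where 33.6% and 25.1% of all genes fell. Decorin (Dcn), which binds type I fibrils and limits their width, averaged 664 ± 14.1 CPM with MRTX1719, 925 ± 21.3 CPM with GSK3326595 and 1186 ± 8.65 CPM with DMSO in KO cells. In WT cells it averaged 455 ± 12.5, 604.5 ± 5.11 and 470.2 ± 2.92 CPM. It fell with both inhibitors in KO cells, with log2 changes of -0.84 ± 0.019 (adjusted p = 2.03e-79) and -0.36 ± 0.019 (adjusted p = 3.32e-38), and rose with GSK3326595 in WT cells by 0.36 ± 0.020 (adjusted p = 2.2e-36). Biglycan (Bgn), a close relative of decorin, changed by -0.73 ± 0.018 (adjusted p = 2.21e-75) with MRTX1719 and -0.26 ± 0.018 (adjusted p = 3.44e-28) with GSK3326595 in KO cells. Versican (Vcan), a large proteoglycan that holds hyaluronan, changed by -0.37 ± 0.020 (adjusted p = 1.71e-37) and -0.19 ± 0.020 (adjusted p = 1.59e-15).

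Lumican (Lum), which keeps fibrils evenly spaced and is the neighbour of Dcn on chromosome 10, went opposite ways with the inhibitors in KO cells. KO libraries of Lum had 7.82, 7.47 and 7.62 CPM with MRTX1719, 18.98, 21.6 and 21.2 CPM with GSK3326595 and 14.8, 13.4 and 14.2 CPM with DMSO. WT libraries of Lum had 17.6 and 18.7 CPM with MRTX1719, 41.1, 42.4 and 40.7 CPM with GSK3326595 and 15.4, 14.9 and 15.4 CPM with DMSO. MRTX1719-treated KO cells were lowest and GSK3326595-treated WT cells highest, and neither overlapped another group. The log2 change in KO cells was -0.89 ± 0.082 (adjusted p = 1.77e-19) with MRTX1719 and 0.55 ± 0.065 (adjusted p = 4.75e-13) with GSK3326595, and the direct difference of MRTX1719 from GSK3326595 was -1.44 ± 0.074 (adjusted p = 8.36e-39). In WT cells Lum rose by 1.45 ± 0.056 (adjusted p = 3.98e-51) with GSK3326595 and by 0.25 ± 0.072 (adjusted p = 0.012) with MRTX1719. The second call was lost without WT DMSO replicate 2 (adjusted p = 0.0578). It was also lost without WT MRTX1719 replicate 3 (0.21), which leaves 1 library in that group.

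Of the 7 glycoproteins, 4 rose and 3 fell with MRTX1719 in KO cells, 5 rose and 1 fell with GSK3326595 in KO cells, and 5 rose and 1 fell with GSK3326595 in WT cells. The shares of all genes were 37.0% and 33.6%, 27.7% and 25.1%, and 20.1% and 21.1% in the same order. Tnc is among the genes that rose in KO cells, where its low counts make the calls a description. Periostin (Postn), a protein of fibroblast-rich stroma that binds integrins and collagen, had 0.594, 0.552 and 0.434 CPM with MRTX1719, 1.597, 1.32 and 1.79 CPM with GSK3326595 and 3.49, 3.32 and 2.73 CPM with DMSO in KO cells. WT cells had 0.717 and 0.681 CPM with MRTX1719, 0.7698, 0.7699 and 0.959 CPM with GSK3326595 and 0.338, 0.834 and 1.04 CPM with DMSO for Postn. KO cells under DMSO were above all other groups, and the KO groups did not overlap. Its log2 change was -2.57 ± 0.252 (adjusted p = 8.33e-18) with MRTX1719 and -1.01 ± 0.198 (adjusted p = 4.51e-06) with GSK3326595 in KO cells, and it was 4.26-fold higher in KO than in WT cells under DMSO (2.09 ± 0.232, adjusted p = 5.29e-15). These rest on 37, 119 and 216 counts summed over the KO libraries with MRTX1719, GSK3326595 and DMSO, and on 54 over WT libraries with DMSO.

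Thrombospondin 2 (Thbs2), a matricellular protein that limits vessel growth and metalloproteinase activity, had the opposite direction. KO libraries of Thbs2 had 17.1, 17.3 and 17.5 CPM with MRTX1719, 12.4, 13.03 and 12.8 CPM with GSK3326595 and 3.696, 4.77 and 4.22 CPM with DMSO. WT libraries of Thbs2 had 5.97 and 7.08 CPM with MRTX1719, 16.1, 14.01 and 16.8 CPM with GSK3326595 and 5.15, 5.34 and 5.43 CPM with DMSO. Levels were high in 3 groups, both inhibitor groups of KO cells and the GSK3326595 group of WT cells, and none of these libraries overlapped the DMSO groups. The rise in KO cells was 2.01 ± 0.094 (adjusted p = 5.13e-44) with MRTX1719 and 1.58 ± 0.098 (adjusted p = 1.9e-31) with GSK3326595, and in WT cells it was 1.56 ± 0.088 (adjusted p = 5.86e-35) with GSK3326595, against 0.30 ± 0.116 (adjusted p = 0.107) with MRTX1719, which did not pass. GSK3326595 had effects on Thbs2 whose difference between the lines was 0.02 ± 0.138 (adjusted p = 0.932). The difference between the lines under DMSO (-0.31 ± 0.119, adjusted p = 0.0137) was lost without KO DMSO replicate 1 (-0.23, adjusted p = 0.0991). Its relative Thbs1, an activator of latent TGF-beta that was far more abundant, rose by 0.33 ± 0.017 (adjusted p = 7.88e-40) and 0.20 ± 0.017 (adjusted p = 1.05e-20) in KO cells.

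Fibronectin (Fn1), the glycoprotein on which cells assemble other matrix, averaged 2940 ± 16.1 CPM with MRTX1719, 3967 ± 29.2 CPM with GSK3326595 and 3087 ± 23.9 CPM with DMSO in KO cells. In WT cells it averaged 2236 ± 16.3, 2398 ± 21.8 and 2167 ± 41.9 CPM. It fell slightly with MRTX1719 (-0.07 ± 0.016, adjusted p = 6.48e-05) and rose with GSK3326595 (0.36 ± 0.016, adjusted p = 9.47e-45) in KO cells. Sparc, a collagen-binding protein, rose with both inhibitors in KO cells, by 0.20 ± 0.017 and 0.19 ± 0.017, and was 1.82-fold higher in KO than in WT cells under DMSO. Abi3bp, a low-level matrix protein that binds cell surfaces, had 0.274, 0.147 and 0.193 CPM with MRTX1719, 0.311, 0.3304 and 0.267 CPM with GSK3326595 and 0.513, 0.445 and 0.5798 CPM with DMSO in KO cells. WT libraries of Abi3bp had 1.81 and 2.23 CPM with MRTX1719, 0.5004, 0.539 and 0.738 CPM with GSK3326595 and 1.94, 2.35 and 1.61 CPM with DMSO. The WT groups with MRTX1719 and DMSO were above all others. It changed by -1.73 ± 0.258 (adjusted p = 6.84e-09) with GSK3326595 in WT cells and by -1.33 ± 0.455 (adjusted p = 0.00662) with MRTX1719 in KO cells, and KO cells were 3.84-fold lower than WT cells under DMSO.

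Tenascin C (Tnc), a glycoprotein of healing and tumour stroma, was near the limit of detection in KO cells. KO libraries of Tnc had 0.0914, 0.1104 and 0.434 CPM with MRTX1719, 0.311, 0.257 and 0.0764 CPM with GSK3326595 and 0, 0.0405 and 0 CPM with DMSO. WT libraries of Tnc had 0.604 and 0.946 CPM with MRTX1719, 1.23, 1.58 and 1.81 CPM with GSK3326595 and 0.7601, 0.834 and 0.348 CPM with DMSO. The KO DMSO libraries together held 1 count, against 48 counts in the WT DMSO libraries, a ratio 44.9-fold lower with a 95% exact interval of 7.68 to 1809. With MRTX1719 there were 14 counts in KO cells, 13.7-fold over DMSO (2.09 to 579.8), and with GSK3326595 there were 16 counts, 14.4-fold over DMSO (2.24 to 604), where intervals cover counting error only. The test passed in both (adjusted p = 0.00233 and 0.00222), the first lost without KO MRTX1719 replicate 3 (adjusted p = 0.0774). Tnc passed the filter on low counts through its WT libraries and not its KO libraries, so these KO values are a description. In WT cells Tnc rose with GSK3326595 (1.23 ± 0.293, adjusted p = 0.000248). Fibrillin 1 (Fbn1), the backbone of microfibrils, was 2.19-fold higher in KO than in WT cells under DMSO (1.13 ± 0.021, adjusted p = 5.52e-92) and fell with MRTX1719 in KO cells (-0.16 ± 0.020, adjusted p = 1.53e-12). Exons of Gm9913 cover 20.1% of the Fbn1 exon length on the other strand, so with the strand setting unknown reads in that shared stretch cannot be told apart.

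Scaled by exon length, the order of 7 abundant genes differed between groups. The length is that of all annotated exons of a gene joined, so the order within a group depends on the annotation. As mean CPM per kb of exon, KO cells with MRTX1719 had 564 for Sparc, 420.0 for Thbs1, 308 for Col1a1, 252 for Fn1, 214 for Bgn, 202 for Col3a1 and 122 for Col6a1. KO cells with DMSO had 513.5 for Col3a1, 492 for Sparc, 386 for Col6a1, 355 for Bgn, 352.5 for Col1a1, 334 for Thbs1 and 264 for Fn1. WT cells with DMSO had 288 for Bgn, 270.1 for Sparc, 185 for Fn1, 169 for Col6a1, 146 for Col3a1, 139 for Thbs1 and 138 for Col1a1. With MRTX1719 in KO cells Col3a1 and Col6a1 stood lowest of the 7, whereas with DMSO in KO cells Col3a1 stood highest.

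The effect of each inhibitor was then compared between the lines in the same fit. For MRTX1719 the change in KO cells minus that in WT cells was below 0 in 26 of the 40 genes and above 0 in 7 past the test, where 27.9% of all genes were below and 30.3% above (58.2% in all). The median difference was -0.33, against 0.014 over all genes. All 8 fibrillar chains, all 4 type VI chains and all 4 proteoglycans were among the 26. Differences of at least 1 on the log2 scale were found for 12 genes (9.90% of all genes). Tnc is among the 7 above 0 and the 12, but with 1 count over the KO DMSO libraries its difference is a description. The largest below 0 were Postn (-2.49 ± 0.448, adjusted p = 5.26e-07), Col16a1 (-2.11 ± 0.073, adjusted p = 4.24e-57) and Col6a1 (-1.59 ± 0.028, adjusted p = 6.62e-93). Thbs2 was the clearest above 0 (1.72 ± 0.153, adjusted p = 4.79e-20). The difference for Abi3bp (-1.36 ± 0.510, adjusted p = 0.0166) was lost without KO MRTX1719 replicate 2 (adjusted p = 0.0746). It was also lost without WT MRTX1719 replicate 3 (-1.20), which leaves 1 library in that group. The difference for Tnc (3.15 ± 1.124, adjusted p = 0.0116) was lost without KO DMSO replicate 3 or KO MRTX1719 replicate 3 (adjusted p = 0.0529 and 0.142).

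For GSK3326595 the difference was below 0 in 17 genes and above 0 in 9, where 20.2% of all genes were below and 22.0% above (42.2% in all), and 4 genes differed by at least 1 (2.62% of all genes). These were Col24a1 (-1.48 ± 0.395, adjusted p = 0.00108), Col12a1 (-1.24 ± 0.109, adjusted p = 1.01e-19), Col14a1 (-1.21 ± 0.373, adjusted p = 0.00519) and Postn (-1.19 ± 0.355, adjusted p = 0.00377). The difference for Col14a1 was lost without KO DMSO replicate 2 (-0.74, adjusted p = 0.21). For Col12a1 and Lum, GSK3326595 raised RNA in both lines, with a larger log2 change in WT cells. The difference for Lum was -0.89 ± 0.088 (adjusted p = 8.1e-17). Under DMSO Col12a1 averaged 3.18 CPM in WT cells and 105 CPM in KO cells. For Dcn and Col5a3 the directions were opposite, with differences of -0.72 ± 0.027 (adjusted p = 2.99e-52) and -0.70 ± 0.063 (adjusted p = 3.46e-19).

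**Figure D4:**
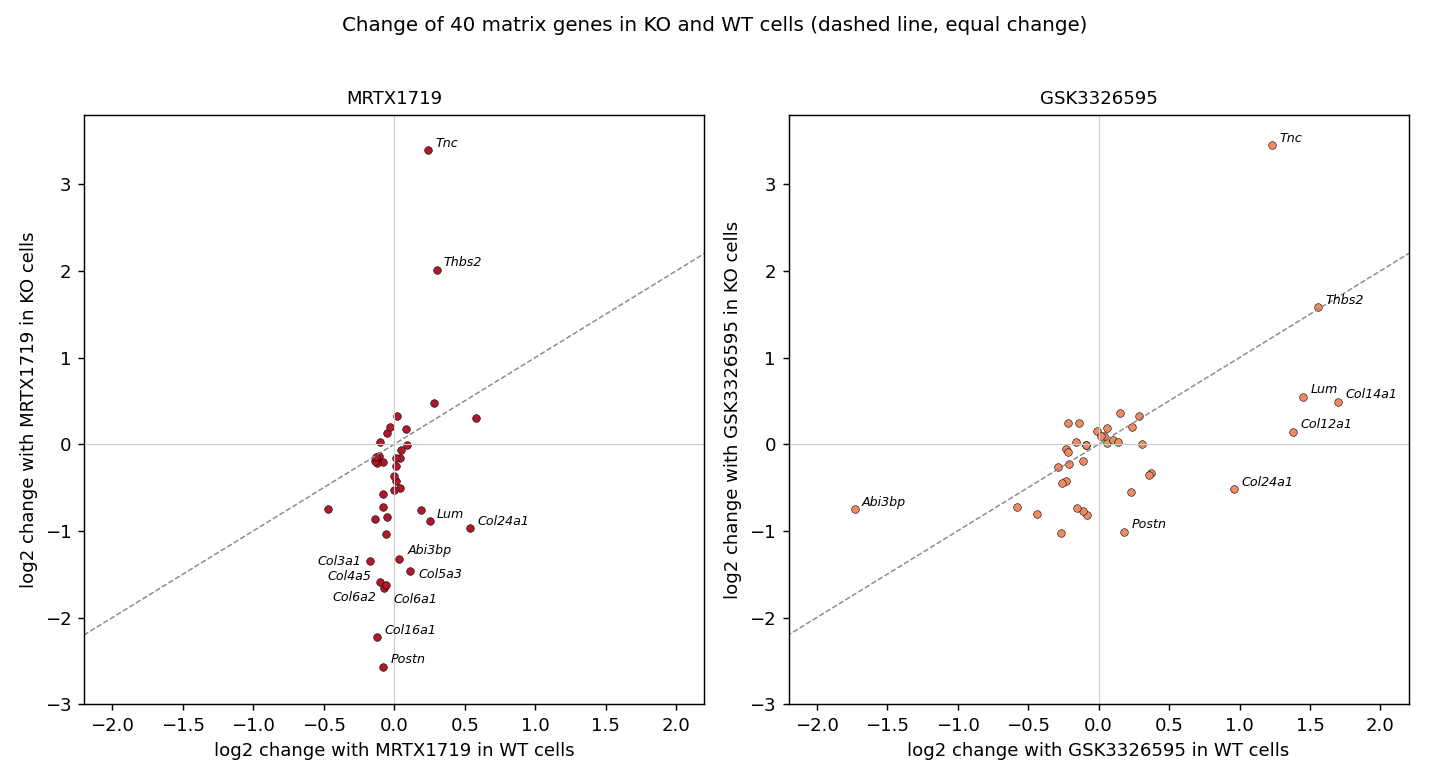
Log2 change of 40 matrix genes in KO cells (vertical axis) against WT cells (horizontal axis) with MRTX1719 (left) and GSK3326595 (right), where the dashed line marks equal change and names are given to genes far from it or with a large change in WT cells. With MRTX1719 most points lie near 0 on the horizontal axis and below 0 on the vertical axis, and with GSK3326595 they spread along both axes.

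At the same dose and time, MRTX1719 and GSK3326595 were compared directly in each line. In KO cells 27 of the 40 genes were lower with MRTX1719 than with GSK3326595 and 3 were higher, where 24.9% of all genes were lower and 28.3% higher (53.2% in all), with a median log2 difference of -0.37, against 0.009 over all genes. Col16a1 (-1.20 ± 0.061, adjusted p = 4.98e-39), Col5a3 (-1.13 ± 0.051, adjusted p = 1.55e-44), Postn (-1.56 ± 0.283, adjusted p = 8.7e-07) and Lum were lower by at least 2-fold, a size that 2.62% of all genes passed in either direction. The 3 higher genes were Thbs2 (0.43 ± 0.073, adjusted p = 1.24e-07), Col12a1 (0.16 ± 0.031, adjusted p = 3.62e-06) and Thbs1 (0.13 ± 0.017, adjusted p = 7.84e-12). In WT cells 15 were lower and 14 higher with MRTX1719 than with GSK3326595, where 14.6% of all genes were lower and 15.4% higher (30.0% in all). There Col14a1 (-1.42 ± 0.168, adjusted p = 2.05e-12), Thbs2 (-1.26 ± 0.094, adjusted p = 1.24e-24) and Lum (-1.19 ± 0.061, adjusted p = 1.41e-38) were lower and Abi3bp (1.76 ± 0.278, adjusted p = 6.72e-08) was higher, each by at least 2-fold, as were 1.17% of all genes in either direction.

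The ratio of counts between a pair of matrix genes was taken in each library for 8 pairs. These ratios are not scaled for gene length, so they are read only across groups, and they are given as a description with no test. Col1a1 over Col1a2 was 1.53 ± 0.0185 with MRTX1719, 1.41 ± 0.0248 with GSK3326595 and 0.962 ± 0.0306 with DMSO in KO cells (SD), and 0.810 ± 0.0030, 0.959 ± 0.0083 and 0.777 ± 0.0134 in WT cells. Every inhibitor library of KO cells was above every other library. Col3a1 over Col1a1 was 0.980 ± 0.0123, 1.15 ± 0.0335 and 2.18 ± 0.0844 in KO cells with MRTX1719, GSK3326595 and DMSO, against 1.48 ± 0.0035, 1.46 ± 0.0049 and 1.59 ± 0.0249 in WT cells. Here the KO groups lay on both sides of the WT groups. Col6a1 over Col6a2 stayed between 1.36 and 1.44 in all KO libraries, against 1.20 to 1.28 in all WT libraries. Col6a3 over Col6a1 was 0.191 ± 0.0051, 0.148 ± 0.0025 and 0.087 ± 0.0012 in KO cells, against 0.482 ± 0.0009, 0.465 ± 0.0086 and 0.460 ± 0.0057 in WT cells. Lamb1 over Lamc1 was 2.003 ± 0.0266, 2.004 ± 0.0112 and 1.60 ± 0.0530 in KO cells, against 1.502 ± 0.0124, 1.88 ± 0.0345 and 1.44 ± 0.0294 in WT cells.

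**Figure D5:**
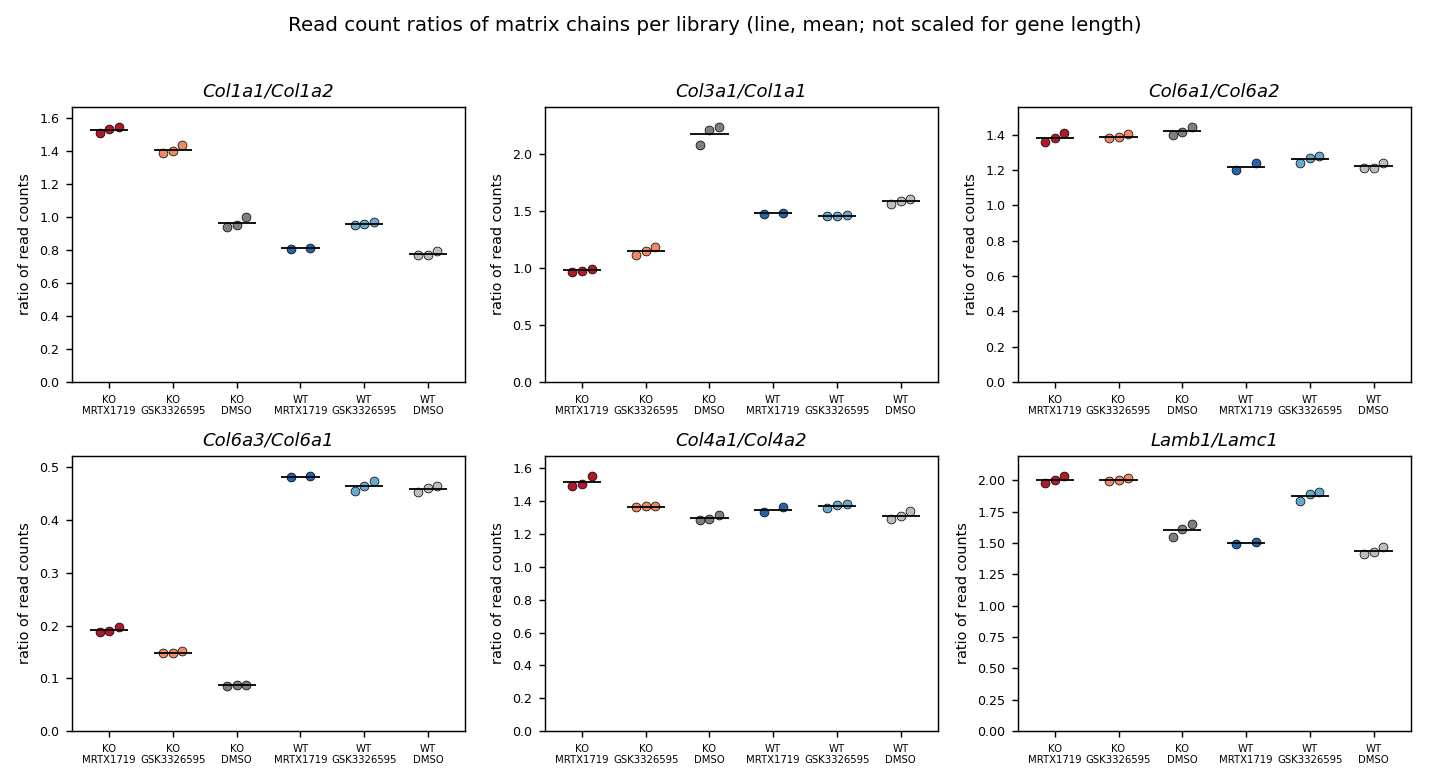
Ratio of read counts of matrix chains in each library (points) with the group mean (line), not scaled for gene length, for 6 pairs. Col1a1/Col1a2 is at least 1.385 in every KO library with an inhibitor and at most 0.997 in every other library, and Col6a1/Col6a2 differs between the lines but little between treatments.

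Genes that make, bind and regulate this matrix were read from 5 lists. Of 26 tested genes of collagen synthesis, 18 fell and 6 rose with MRTX1719 in KO cells, 13 fell and 8 rose with GSK3326595 in KO cells, and 4 fell and 3 rose with MRTX1719 in WT cells. Over all genes, 33.6% fell and 37.0% rose with MRTX1719 in KO cells, 25.1% fell and 27.7% rose with GSK3326595 in KO cells, and 3.91% fell and 3.62% rose with MRTX1719 in WT cells. Crtap, part of the prolyl 3-hydroxylation complex, changed by -0.83 ± 0.035 (adjusted p = 5.54e-49) with MRTX1719 in KO cells. Lox, the enzyme that cross-links collagen, rose to 2.21 ± 0.516 CPM with MRTX1719 and 1.05 ± 0.0868 CPM with GSK3326595 in KO cells, against 0.219 ± 0.106 CPM with DMSO, with log2 changes of 3.29 ± 0.344 (adjusted p = 3.16e-16) and 2.24 ± 0.392 (adjusted p = 3.63e-07). Of 23 tested receptors for matrix, 9 fell and 10 rose with MRTX1719 in KO cells, near the 33.6% and 37.0% of all genes. Itga1, a collagen-binding integrin chain, fell (-1.72 ± 0.121, adjusted p = 7.31e-28), while Itgb4 (2.25 ± 0.177, adjusted p = 3.35e-23), Itgb3 (1.38 ± 0.033, adjusted p = 3.53e-77) and Cd44 (1.15 ± 0.022, adjusted p = 1.76e-90), a hyaluronan receptor, rose.

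Of 22 genes of the TGF-beta pathway, a known inducer of collagen genes, 8 fell and 11 rose with each inhibitor in KO cells, and 3 fell and 2 rose with MRTX1719 in WT cells. Of all genes, 33.6% fell and 37.0% rose with MRTX1719 and 25.1% fell and 27.7% rose with GSK3326595 in KO cells, and 3.91% fell and 3.62% rose with MRTX1719 in WT cells. Ltbp4, which tethers latent TGF-beta to fibrils, averaged 18.7 ± 1.24 CPM with MRTX1719, 41.02 ± 1.66 CPM with GSK3326595 and 75.6 ± 1.76 CPM with DMSO in KO cells, with a change of -2.01 ± 0.045 (adjusted p = 1.71e-80) with MRTX1719. Acta2, Ccn2 and Tagln, known TGF-beta targets, rose with MRTX1719 in KO cells, where all 3 were under 1 CPM with DMSO, by 2.92 ± 0.405, 2.31 ± 0.346 and 1.55 ± 0.328. Of 13 other basement membrane genes, 7 rose and 3 fell with MRTX1719 in KO cells, and Hspg2, the core protein of perlecan, fell (-1.53 ± 0.021, adjusted p = 2.27e-108). Of 21 elastic fibre, proteoglycan and matricellular genes, 13 fell and 5 rose with MRTX1719 in KO cells, against the same shares of all genes. Ogn, a small leucine-rich proteoglycan, averaged 165 ± 1.34 CPM with MRTX1719, 286 ± 16.1 CPM with GSK3326595 and 813 ± 9.295 CPM with DMSO in KO cells, a log2 change of -2.30 ± 0.024 (adjusted p = 3.23e-103) with MRTX1719. Its relative Omd fell too (-1.55 ± 0.083, adjusted p = 2.83e-38), while Emilin2 rose (2.74 ± 0.204, adjusted p = 8.14e-26).

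Between the lines under DMSO, the same lists gave more genes higher in KO cells for 3 of 5. Of the collagen synthesis genes 17 were higher and 6 lower, of the matrix receptors 15 were higher and 8 lower, and of the elastic fibre, proteoglycan and matricellular genes 16 were higher and 3 lower, where 36.2% of all genes were higher and 37.0% lower. Of the TGF-beta genes 9 were higher and 12 lower, and of the other basement membrane genes 5 were higher and 5 lower. Aspn, a small leucine-rich proteoglycan, averaged 73.1 ± 0.933 CPM in KO cells and 10.1 ± 0.143 CPM in WT cells under DMSO, a difference of 2.86 ± 0.054 (adjusted p = 2.64e-90). Itgb3, an integrin chain that pairs to bind fibronectin and other glycoproteins, averaged 60.9 ± 2.38 CPM in KO cells and 13.6 ± 0.4897 CPM in WT cells (2.16 ± 0.049, adjusted p = 2.9e-80). Tgfb2, a TGF-beta ligand, averaged 1.899 ± 0.317 CPM in KO cells and 9.46 ± 0.513 CPM in WT cells (-2.33 ± 0.131, adjusted p = 1.57e-36). In WT cells GSK3326595 gave 7 higher and 7 lower collagen synthesis genes, 9 higher and 6 lower receptors, and 8 higher and 8 lower elastic fibre, proteoglycan and matricellular genes, where 20.1% of all genes were higher and 21.1% lower.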

How the data were processed

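Poly(A) RNA of 17 MC38/gp100 libraries was read from tables of raw counts per gene and of normalized values. Per the submitters' processing notes, reads were processed with TopHat2 2.0.10, Bowtie2 2.1.0 and DESeq 1.18.0 on GRCm39 (mm39). The counting program, its annotation and its strand setting were not given in the sources used here. The deposited count table holds whole-number counts for 56562 gene identifiers, and the authors' normalized table holds a signal, counts divided by a size factor per library, under gene symbols. Symbols were tied to identifiers by matching both tables, and all 15629 entries matched to within a relative difference of 1e-06. The normalized signal was used for nothing else. Tables of T cells were not used here.

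Counts were tested with edgeR 4.0.16 in R 4.3.3 (filterByExpr with a minimum count of 10, TMM scaling, robust quasi-likelihood fit), with all 17 libraries and 6 groups in 1 fit, so the groups share an estimate of spread. Adjusted p-values are Benjamini-Hochberg over 14835 genes with a threshold of 0.05, and tests are two-sided. A value after ± is the SE of a log2 change and the SD of a CPM. Library totals of 19302768 to 27786226 counts set the precision, and genes under about 1 CPM rest on few counts. Pairs of replicates had a chi-square per gene of 1.40 to 2.83, where 1 is sampling noise alone, so each was kept as a library of its own. This does not show that replicates were separate cultures. The common coefficient of variation beyond counting noise was 0.0198, so very small changes pass the test. Alternatives were DESeq2 1.42.0, RLE scaling, no filter on low counts, a replicate block, only the groups compared, and leaving out each library.

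The members and lists were chosen with earlier results of these data known. Values per library are given for members past the test with a log2 change of at least 1 with an inhibitor, or 2 between the lines, and at least 1 CPM in a group, and up to 4 members are named per list and comparison. Titles name the second inhibitor GSK3326595 throughout, while the treatment field of replicates 2 and 3 ends in other digits, and the titles were followed. Exon lengths and overlaps come from GENCODE M21 on GRCm38, and promoters from RefSeq on GRCm38.p6.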

Additional observations from a re-analysis of the deposited data

Results flagged for a closer look

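The 16 results given here are differences between the lines in the effect of an inhibitor, as the log2 change in KO cells minus that in WT cells, that passed the edgeR interaction test with a size of at least 1. With MRTX1719 the difference was -2.49 for Postn, -2.11 for Col16a1, -1.59 for Col6a1, -1.58 for Col5a3, -1.56 for Col6a2, -1.51 for Col24a1, -1.49 for Col4a5, -1.36 for Abi3bp, -1.18 for Col3a1 and -1.14 for Lum. It was 1.72 for Thbs2 and 3.15 for Tnc with the same inhibitor. Tnc had 1 count over the KO DMSO libraries and passed the low-count filter through WT libraries, so its value is a description. The call for Tnc was lost without KO DMSO replicate 3 or KO MRTX1719 replicate 3 (adjusted p = 0.0529 and 0.142). With GSK3326595 the difference was -1.48 for Col24a1, -1.24 for Col12a1, -1.21 for Col14a1 and -1.19 for Postn. Postn, Col24a1, Abi3bp, Tnc and Col14a1 averaged under 10 CPM in every group, so their values rest on few counts.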

How the results depend on the processing

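No alternative changed the sign of a called difference for the 40 genes tested. The count of matrix genes past the test with MRTX1719 in WT cells was the least stable: it was 14 with all libraries, 9 without WT MRTX1719 replicate 1 and 6 without replicate 3, and 6 to 12 over all single libraries left out. The other counts stayed within 1.5 times. Leaving out single libraries gave 33 to 36 (35 with all) for MRTX1719 in KO cells, 26 to 29 (28) for GSK3326595 in KO cells, 30 to 32 (32) for GSK3326595 in WT cells and 36 to 37 (37) between the lines. It gave 32 to 34 (33) and 23 to 27 (26) for the difference between the lines with MRTX1719 and GSK3326595, and 29 to 31 (30) and 22 to 28 (29) for MRTX1719 against GSK3326595 in KO and WT cells. With a replicate block the counts were 35, 28, 13 and 32 for MRTX1719 and GSK3326595 in KO and then in WT cells, 37 between the lines, 33 and 26 for the differences between the lines, and 30 and 28 for the inhibitors against each other. The replicate numbers did not pair the libraries: deviations of same-numbered libraries had correlations of -0.06 to 0.05, against -0.07 to 0.08 for different numbers. Genes under about 1 CPM are limited by depth.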
